A study of Mus musculus with 35 samples.

Results

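The genes described here are 9 peptides, receptors and transcription factors of the suprachiasmatic nucleus, the central circadian pacemaker of the mammalian brain: Avp, Vip, Grp, Prok2, Nms, Six6, Lhx1, Vipr2 and Prokr2. They were chosen by name, and all 9 were found among the 49568 gene names of the count tables. The tables come from RNA-seq of polyadenylated RNA from a block of hypothalamus cut by stereotaxic bounds in 35 male B6/J mice, sampled at zeitgeber time 16 (ZT16, 16 h after lights on). 10 control mice were fed ad libitum and 10 control mice were fasted for 16 h, 5 mice labelled as Per2 knockouts were fasted for 16 h, and 5 PER2-S662D mice were fed ad libitum and another 5 were fasted for 16 h. PER2 is a repressor in the circadian feedback loop, and S662D swaps a phosphorylated serine of PER2 for aspartate, which resembles the phosphorylated residue. The labels do not give how the S662D or knockout alleles were made, the age of the mice or whether the controls were littermates.

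The suprachiasmatic nucleus is a small paired cluster of neurons above the optic chiasm that receives light input from the retina and synchronises clocks elsewhere in the body. Its core holds neurons that make vasoactive intestinal peptide (Vip) or gastrin-releasing peptide (Grp), and its shell holds neurons that make vasopressin (Avp). Neuromedin S (Nms) marks a population that spans core and shell, and prokineticin 2 (Prok2) is a secreted output signal of the nucleus whose transcript is high by day and low at night. Vipr2 encodes the receptor through which Vip keeps the neurons in step, Prokr2 encodes a receptor for Prok2, and Six6 and Lhx1 encode homeobox transcription factors needed for the nucleus to form or for its cells to stay coupled. Most of these transcripts are known not to be confined to the nucleus: vasopressin is also made in large amounts by the paraventricular and supraoptic nuclei, Vip, Grp, Vipr2 and Prokr2 are also expressed in cortex or thalamus, and Lhx1 is also expressed in other parts of the ventral diencephalon.

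The libraries held 17959586 to 37027342 counts, with the deepest in the S662D groups, and mitochondrial transcripts took 6.24% to 9.08% of them. Counted over the whole gene, Per2 stood at 30.3 ± 2.00 CPM (counts scaled to library size; SD, n = 5) in the labelled Per2 knockouts and at 29.0 ± 2.45 CPM (SD, n = 10) in fasted controls. The Per2 count thus showed no loss, and those libraries are called the labelled knockout throughout; a whole-gene count cannot show the loss of one stretch. Per2 was lower in S662D mice, at 18.7 ± 1.98 CPM fed and 19.9 ± 2.38 CPM fasted (SD, n = 5 each). Controls 1 to 5 and controls 6 to 10 carry separate ranges of library numbers in the file headers, and both S662D groups have libraries with and without an additional final digit in that number. 10 of the 35 libraries held over 100 CPM of 5 choroid plexus markers (Ttr, Kl, Folr1, Clic6 and Aqp1), up to 1538 CPM, and calls lost in the fits made without those 10 libraries are named beside the result. In a tissue block, fewer cells of a type and less RNA per cell cannot be told apart.

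Promoter sequences were matched by symbol in a RefSeq table (build GRCm38.p6), which held a window for 8 of the 9 genes; Grp had none. The E-box CACGTG, the site that the clock proteins CLOCK and BMAL1 bind, reads the same on both strands. It lay within the 250 bases before the start of 2 of these 8 genes, Avp and Prok2, and in 6.02% of all 32851 windows of that length. The cAMP response element TGACGTCA, which also reads the same on both strands, lay in 0 of the 8 and in 1.55% of all windows. The 2 windows with an E-box are shown because Avp and Prok2 are the textbook clock-controlled outputs among these genes; both are on the minus strand, printed 5′ to 3′ and ending at the base before the start, with the E-box in capitals.
Avp, chr2:130582589-130582838: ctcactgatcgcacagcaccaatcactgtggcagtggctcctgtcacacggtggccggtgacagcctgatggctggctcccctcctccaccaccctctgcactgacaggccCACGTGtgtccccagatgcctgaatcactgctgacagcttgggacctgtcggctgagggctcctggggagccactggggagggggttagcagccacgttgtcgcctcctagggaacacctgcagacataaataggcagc
Prok2, chr6:99726393-99726642: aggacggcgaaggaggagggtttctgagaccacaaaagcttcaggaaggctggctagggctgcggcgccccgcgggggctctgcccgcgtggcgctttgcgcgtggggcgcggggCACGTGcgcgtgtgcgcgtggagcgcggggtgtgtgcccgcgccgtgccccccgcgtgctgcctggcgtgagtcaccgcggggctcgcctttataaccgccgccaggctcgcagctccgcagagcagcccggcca
The E-box spans bases 139 to 134 before the start in Avp and bases 135 to 130 before it in Prok2. A match of these letters is a description of the window and shows no binding.

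All 9 transcripts were detected, at levels that spanned over 3 orders of magnitude on the per-length scale (RPKM, corrected for exon length and library size). Avp stood far above the rest, with a mean level of 400.3 ± 75.6 RPKM (SD, n = 35), and in all 35 mice its level exceeded that of every other member. Grp (3.47 ± 0.901 RPKM), Vipr2 (2.93 ± 0.468 RPKM), Lhx1 (2.23 ± 0.193 RPKM) and Vip (1.63 ± 0.328 RPKM) formed the next tier of levels. Prokr2 (0.995 ± 0.188 RPKM), Six6 (0.820 ± 0.160 RPKM) and Nms (0.634 ± 0.194 RPKM) followed, and Prok2 was lowest at 0.195 ± 0.111 RPKM. Within the same mouse the level of Vipr2 exceeded that of Lhx1 in 34 of 35 mice and that of Nms exceeded that of Prok2 in 35 of 35. The order was less settled between Grp and Vipr2 (Grp higher in 27 of 35 mice, mean difference 0.534 RPKM with an SD of 1.11), between Prokr2 and Six6 (29 of 35) and between Six6 and Nms (28 of 35), pairs whose ranges overlapped.

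The counts behind these levels differ greatly. Avp had 2534 to 9649 counts in a library, Vipr2 had 186 to 523, Lhx1 had 138 to 316, Prokr2 had 109 to 271, Vip had 37 to 180, Grp had 43 to 124 and Six6 had 37 to 123. Nms had only 6 to 24 counts and Prok2 only 0 to 24, so that counting error alone gives a coefficient of variation of about 27.3% for Nms and 35.2% for Prok2. Differences of moderate size in these 2 genes were not detectable at this depth.

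Vasopressin, the antidiuretic hormone and the main peptide of the shell, varied widely between mice within every group. Avp ran from 154.8 to 307.6 CPM with a median of 236 CPM when fed and from 136 to 271.6 CPM with a median of 222 CPM when fasted, in controls. The 5 labelled knockout libraries held 268, 212, 264, 173 and 203 CPM. The fed S662D libraries held 216, 236, 293, 215 and 252.5 CPM, and the fasted S662D libraries 327, 284, 215, 226 and 283 CPM. The ranges of all groups overlapped, and the single highest value came from a fasted S662D mouse. The spread of Avp within groups, an SD of 0.28 on the log2 CPM scale, was larger than that of 99.6% of the 500 genes nearest to it in level, whose median SD was 0.09.

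The core peptides Vip and Grp were low and close to even across groups, with an exception for Grp. Vip ran from 2.04 to 7.47 CPM with a median of 5.64 CPM in fed controls and from 4.33 to 6.88 CPM with a median of 5.02 CPM in fasted controls; the lowest value belonged to fed control 3. The labelled knockout libraries lay in a narrow band of 6.43, 6.53, 6.30, 6.39 and 6.89 CPM. Vip levels in S662D mice were 6.98, 4.86, 5.52, 4.91 and 5.84 CPM fed and 4.71, 4.68, 6.07, 5.86 and 5.01 CPM fasted, inside the control range. The Vip ranges of the labelled knockout and fasted S662D mice did not overlap, as was so for 4.92% of all genes between these 2 groups. Over the 10 pairs of groups this was the only pair without overlap for any of the 9 genes. The share of all genes without overlap was not taken for the other pairs. Grp ran from 2.23 to 5.56 CPM with a median of 3.67 CPM in fed controls and from 3.32 to 5.60 CPM with a median of 3.85 CPM in fasted controls. Grp held 2.63, 2.40, 2.49, 2.19 and 3.56 CPM in fed S662D mice, so that 4 of the 5 lay below 9 of the 10 fed controls. In fasted S662D mice it held 3.35, 3.33, 2.01, 3.35 and 3.68 CPM, and in the labelled knockout 5.79, 3.12, 4.94, 3.98 and 2.33 CPM, a range that covered nearly all other libraries.

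The 2 rarest peptides were near the limit of what these libraries can resolve. In controls Prok2 had 2 to 17 counts when fed and 1 to 11 when fasted. The labelled knockout libraries held 6, 3, 0, 5 and 5 Prok2 counts, with 1 library at 0, which allows up to 3 counts in that library. The S662D libraries held 3, 24, 9, 12 and 18 counts fed and 9, 8, 14, 5 and 14 fasted. Nms had 6 to 18 counts in fed controls, 7 to 17 in fasted controls, 7 to 18 in the labelled knockout and 9 to 24 in S662D mice, with means between 0.606 and 0.690 CPM in all 5 groups.

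Among the receptors, Vipr2 ran from 10.2 to 15.0 CPM in fed controls (median 13.4) and from 9.69 to 19.0 CPM in fasted controls (median 12.3). Its labelled knockout values were 12.1, 13.4, 10.4, 12.7 and 16.9 CPM, and its S662D values 11.1, 14.1, 17.2, 13.8 and 13.6 CPM fed and 12.2, 13.2, 12.5, 11.1 and 12.8 CPM fasted. All 5 group means lay between 12.4 and 14.0 CPM. Prokr2 ran from 6.10 to 10.4 CPM in fed controls and from 5.73 to 11.8 CPM in fasted controls, a spread that is taken up by control set further on. Its labelled knockout values were 8.04, 8.66, 8.42, 7.45 and 9.12 CPM, and its S662D values 6.73, 7.31, 8.83, 8.24 and 7.72 CPM fed and 5.96, 6.03, 7.54, 8.83 and 7.17 CPM fasted.

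The 2 homeobox genes differed in how even they were. Lhx1 was the steadiest member, at 7.74 to 10.8 CPM in fed controls (median 9.71), 7.94 to 10.1 CPM in fasted controls (median 8.80), 7.49 to 9.18 CPM in the labelled knockout and 8.53 to 10.1 CPM in S662D mice. Its within-group SD of 0.12 (log2 CPM) was larger than that of only 3.2% of the 500 genes of like level. Six6 ran from 2.39 to 4.80 CPM in fed controls (median 3.35) and from 1.99 to 3.55 CPM in fasted controls (median 2.75), so the fasted range reached lower. Its labelled knockout values were 3.27, 3.69, 3.53, 3.67 and 3.20 CPM, and its S662D values 4.30, 3.32, 4.25, 3.58 and 2.44 CPM fed and 3.05, 3.79, 3.03, 2.98 and 3.35 CPM fasted. A gene on the other strand, 4930447C04Rik, overlaps 4.79% of the Six6 exon bases, and the counting used no strand.

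**Figure D1:**
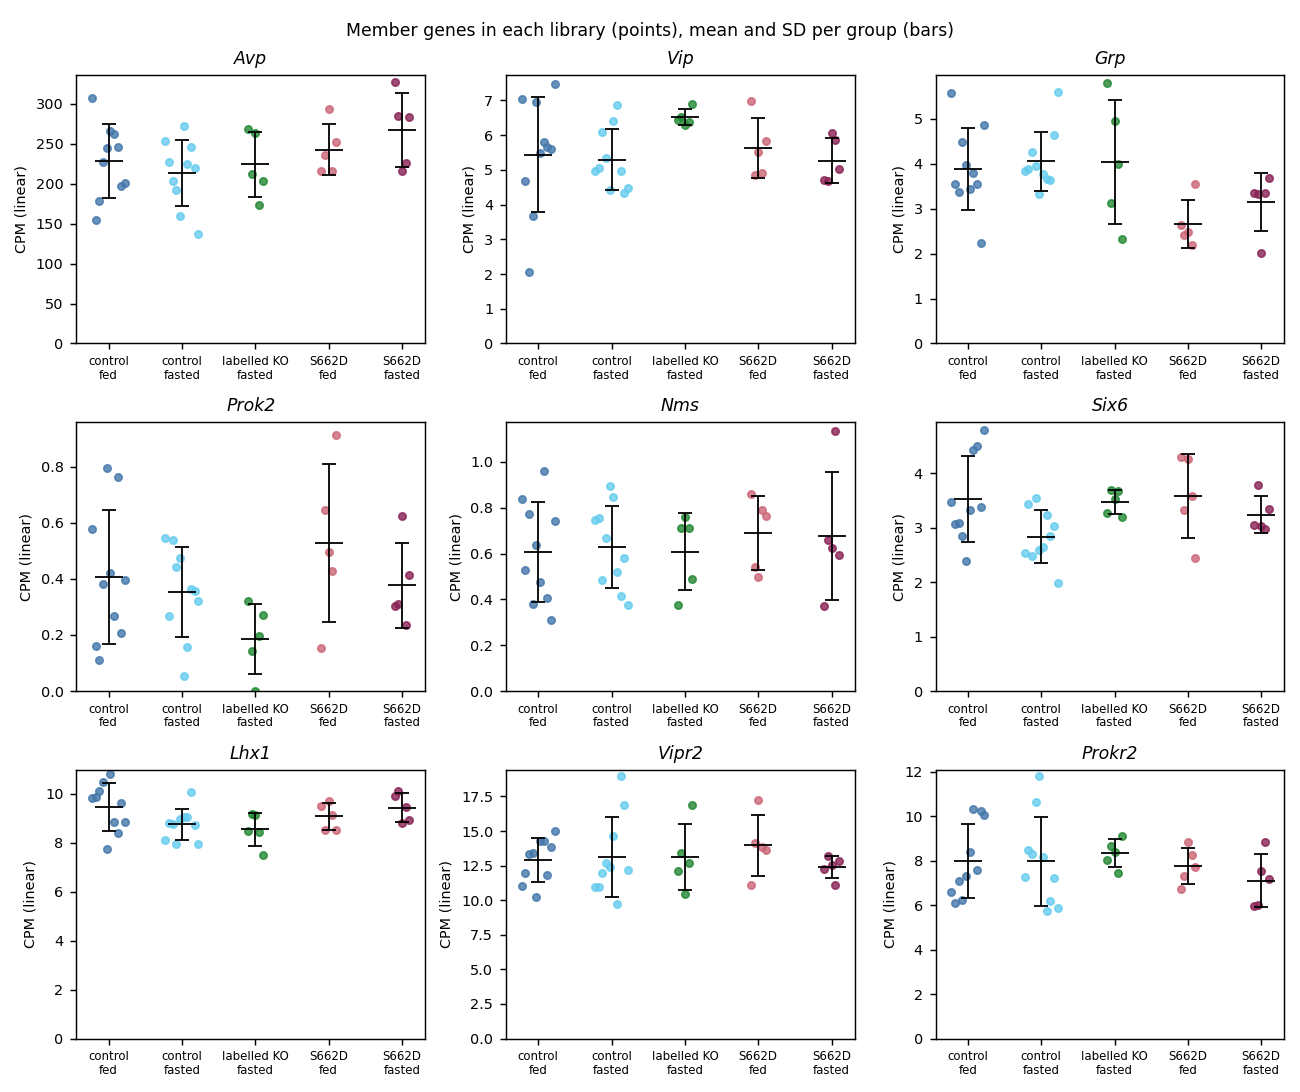
CPM (linear axis) of each of the 9 genes in the 35 libraries by group, 1 point per library, with bars for the mean and SD of each group. Apart from Vip in the labelled knockout and fasted S662D, between which 4.92% of all genes did not overlap, group ranges overlap in every panel. Grp in fed S662D mice, with 4 libraries at 2.19 to 2.63 CPM, stands lowest against its fed controls.

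Fasting for 16 h moved none of the 9 genes past the threshold in control mice. edgeR's quasi-likelihood test, adjusted over all 18063 genes tested, called 0 of 9 members at an adjusted p below 0.05, where it called 3.88% of all genes. At an unadjusted p below 0.05 it held 1 of 9 (13.3% of all genes), and DESeq2 called 0. That gene was Six6, the eye and hypothalamus homeobox factor, with a log2 fold change of -0.32 (SE 0.12, 95% interval -0.56 to -0.08, unadjusted p = 0.00968, adjusted p = 0.150). Avp differed by -0.10 (SE 0.12, interval -0.35 to 0.15), Vip by -0.04 (SE 0.13), Grp by 0.06 (SE 0.14), Lhx1 by -0.11 (SE 0.06), Vipr2 by 0.02 (SE 0.10) and Prokr2 by -0.01 (SE 0.11) on the log2 scale. The median over the members was -0.04, against 0.00 over all genes.

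In S662D mice, edgeR called 0 of 9 members for fasting, against 2.64% of all genes; 0 of 9 had an unadjusted p below 0.05 (14.3% of all genes) and DESeq2 called 0. Grp differed by 0.27 (SE 0.20, adjusted p = 0.579), Avp by 0.14 (SE 0.17, adjusted p = 0.776) and Prok2 by -0.49 (SE 0.43, adjusted p = 0.652), with an interval for Prok2 of -1.35 to 0.37. The fasting response itself did not differ past the threshold between S662D and control mice for any member. edgeR called 0 of 9 and 0% of all genes for that difference, 0 of 9 had an unadjusted p below 0.05 (6.37% of all genes) and DESeq2 called 0. The difference of the responses was 0.24 (SE 0.21) for Avp, 0.20 (SE 0.24) for Grp and 0.17 (SE 0.10) for Lhx1.

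Between S662D and control mice, the largest difference among the members was a lower level of Grp, which encodes a core peptide involved in relaying light input. In fed mice Grp averaged 2.65 ± 0.531 CPM in S662D (SD, n = 5) and 3.88 ± 0.915 CPM in controls (SD, n = 10), a log2 fold change of -0.56 (SE 0.17, interval -0.91 to -0.21, unadjusted p = 0.00241). Its adjusted p of 0.0506 fell just outside the threshold. edgeR thus called 0 of 9 members where it called 4.69% of all genes, and 1 of 9 had an unadjusted p below 0.05 (21% of all genes). DESeq2 called 1 of 9, Grp, at -0.56 with an adjusted p of 0.0267, and over 27 alternatives the adjusted p of Grp ran from 0.0140 to 1.00, with 8 of them below the threshold and every fold change negative, from -0.72 to -0.33. The value nearest to 0, with the adjusted p of 1.00, came from the S662D libraries without the additional digit. In the fed group those are replicates 1 and 5, and 16 of 18746 genes were called there, against 847 in the main fit. A fit that holds the digit as a factor, which called 23 genes, put Grp at -0.36, also not called.

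In fasted mice the Grp difference had the same sign, at 3.14 ± 0.651 CPM in S662D (SD, n = 5) and 4.05 ± 0.653 CPM in controls (SD, n = 10), or -0.36 on the log2 scale (SE 0.17, adjusted p = 0.207). Avp was 267 ± 46.1 CPM in fasted S662D mice and 213 ± 41.8 CPM in fasted controls, a log2 fold change of 0.33 (SE 0.15, interval 0.02 to 0.63, adjusted p = 0.199). edgeR called 0 of 9 members in this comparison, against 5.57% of all genes. 2 of 9, Grp and Avp, had an unadjusted p below 0.05 (20.8% of all genes), and DESeq2 called 0. Calls over all genes between S662D and control mice depended on the control set. With controls 1 to 5 alone edgeR called 1741 genes fed and 1680 fasted, and with controls 6 to 10 alone 33 and 48. The summed level of 82 ribosomal protein genes moved with Grp in the fed comparison: its median was 11279 CPM in fed S662D mice (range 10915 to 13244) and 13617 CPM in fed controls (10994 to 14245), and it was 13502 CPM in fasted S662D mice and 13044 CPM in fasted controls. The part of that shift in the Grp difference was not tested.

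Few genes were called between the labelled knockout and fasted controls: edgeR called 0.0277% of all genes and 0 of 9 members. 1 of 9, Six6, had an unadjusted p below 0.05 (6.07% of all genes), at 0.29 (SE 0.14, adjusted p = 0.817), and DESeq2 called 0. Vip differed by 0.30 (SE 0.16, adjusted p = 0.839) and Prok2 by -0.90 (SE 0.49, interval -1.88 to 0.08, adjusted p = 0.842), with 0 to 11 counts a library in both groups. Against fasted S662D mice, edgeR called 0 of 9 members in the labelled knockout and 7.34% of all genes. 0 of 9 had an unadjusted p below 0.05 (22.4% of all genes), and DESeq2 called 0. Prok2 again had the largest estimate, -0.99 (SE 0.52, adjusted p = 0.255), followed by Grp at 0.35 (SE 0.19, adjusted p = 0.282) and Vip at 0.31 (SE 0.18, adjusted p = 0.303). These comparisons share the fasted control or the fasted S662D libraries with those above.

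**Figure D2:**
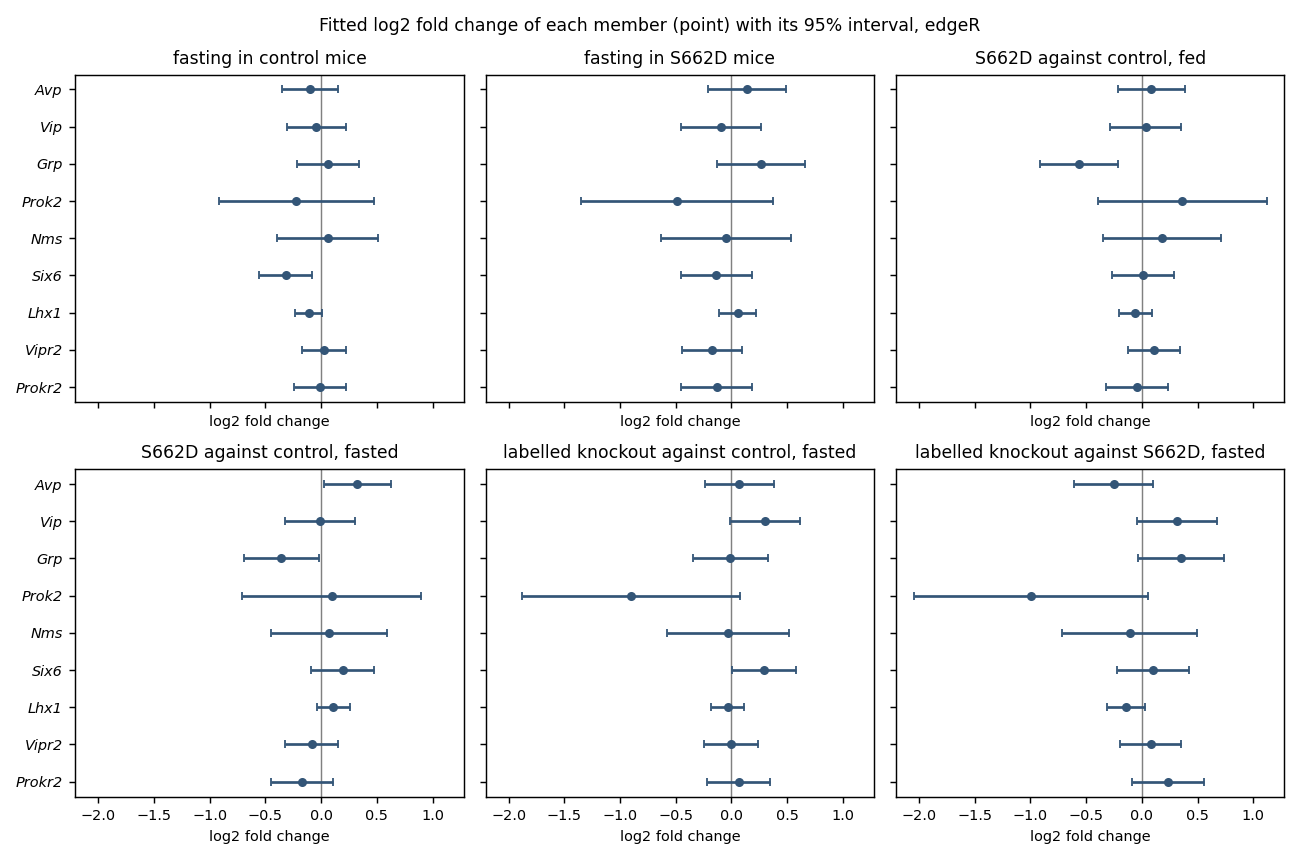
Log2 fold change (horizontal axis) of each of the 9 genes in 6 comparisons, with points for the edgeR estimate and bars for its 95% interval. Most intervals cover 0, the widest belong to Prok2, and Grp in fed S662D mice lies at -0.56.

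Receptors and partner peptides of these genes were read from a list of 14, of which 10 passed the filter on low counts. In fasted against fed controls 1 of the 10 was called, lower, beside 3.88% of all genes: Adcyap1r1, the receptor for the retinal light signal PACAP, at 305.2 ± 11.03 CPM fasted and 329 ± 19.5 CPM fed (SD, n = 10 each), which is -0.11 on the log2 scale (SE 0.03, adjusted p = 0.0489). It kept its call in 12 of 29 alternatives, with adjusted p from 0.0168 to 0.674. Without the libraries rich in choroid plexus markers it was not called (-0.09, adjusted p = 0.388), where 425 of 18192 genes were. In the other 6 comparisons 0 of the 10 were called by edgeR, with 0 to 2 of them at an unadjusted p below 0.05, where 6.07% to 22.4% of all genes were.

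A list of 13 other genes enriched in the nucleus was read in the whole block, so a call does not place a change in the nucleus. All 13 passed the filter, and 1 was called for fasting in controls, again beside 3.88% of all genes. Rgs16, a brake on G-protein signalling that shapes cAMP rhythms in the nucleus, fell with fasting from 78.2 ± 7.27 CPM to 61.3 ± 8.23 CPM (SD, n = 10 each); on the log2 scale this was -0.35 (SE 0.08, adjusted p = 0.00644), and it was called in 28 of 29 alternatives. The exception was controls 6 to 10 alone, at -0.26 with an adjusted p of 0.223, and elsewhere the adjusted p was as low as 0.000244. In fed S662D against fed controls 2 of 13 were called, both higher, beside 4.69% of all genes. Gpr176, an orphan receptor of the nucleus that lowers cAMP, was 23.1 ± 1.46 CPM in S662D and 19.4 ± 1.596 CPM in controls, 0.25 higher on the log2 scale (SE 0.06, adjusted p = 0.0191). Syt10, a synaptotagmin enriched in the nucleus, was 11.7 ± 2.81 CPM and 8.77 ± 1.76 CPM, 0.43 higher (SE 0.11, adjusted p = 0.0251). Tac1, the substance P precursor, was the 1 of 13 called between the labelled knockout and fasted S662D mice (7.34% of all genes), and was higher in the labelled knockout, at 50.6 ± 2.60 and 43.8 ± 4.58 CPM (SD, n = 5 each), by 0.20 on the log2 scale (SE 0.06, adjusted p = 0.0365). Gpr176 and Syt10 lost their call in S662D libraries without the additional digit (0.16 and 0.02, adjusted p = 1.00 for both). In the fed group those are replicates 1 and 5, and 16 of 18746 genes were called there, against 847 in the main fit. With that digit held as a factor, which called 23 genes, both also lost it (0.17 and 0.26, adjusted p = 0.701 and 0.757). So did Gpr176 and Syt10 with controls 6 to 10 alone (33 of 17812 genes called) and without S662D fed replicate 2, 3 or 4. Without the libraries rich in choroid plexus markers Gpr176 and Syt10 were not called (0.26 and 0.48, adjusted p = 0.116 and 0.104), where 243 of 18192 genes were. Tac1 was not called there either (0.21, adjusted p = 0.0710), where 1401 genes were in its comparison. Syt10 was also not called with only the groups compared. Gpr176 was called in 20 (adjusted p from 0.0036) and Syt10 in 19 (from 0.00021) of 27 alternatives, and Tac1 in 9 of 20, with adjusted p from 0.0154 to 0.519. In the other 4 comparisons 0 of the 13 were called by edgeR, with 0 to 5 at an unadjusted p below 0.05 (6.07% to 20.8% of all genes).

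Whether the 9 transcripts rose and fell together from mouse to mouse was read after each group's mean had been removed from the log2 CPM values. Of the 36 pairs of members, 0 passed at an adjusted p below 0.05 (Pearson's r over 35 mice, permutation within groups, Benjamini-Hochberg over 36 pairs), and 0 passed in each of 41 alternatives, where the lowest adjusted p was 0.0540. At an unadjusted p below 0.05 there were 3 pairs. Prok2 and Lhx1 moved in opposite directions (r = -0.51, permutation p = 0.00450, adjusted p = 0.162; Spearman's rho = -0.56, adjusted p = 0.0536; r = -0.51 without the 2 mice farthest from the median of Prok2). Nms and Prokr2 had r = 0.36 (permutation p = 0.0484, adjusted p = 0.587; rho = 0.30; 0.45 without the 2 farthest mice), and Grp and Prokr2 had r = -0.31 (permutation p = 0.0489, adjusted p = 0.587; rho = -0.30; -0.20 without the 2 farthest mice).

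Pairs of peptides, and of peptides with their receptors, were weakly related. Avp and Vip, the shell and core peptides, had r = 0.29 (adjusted p = 0.622), and this was 0.55 in controls 1 to 5, 0.27 in controls 6 to 10 and -0.53 in S662D mice. Vip and its receptor Vipr2 had r = -0.21, Prok2 and its receptor Prokr2 had r = 0.11, Vip and Grp had r = 0.05, Vip and Nms had r = 0.12, and Six6 and Lhx1 had r = 0.14. For Prok2 and Nms, the counting error given above limits any correlation.

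Some members moved with other measures of the libraries. Over 153 relations, of the 9 members with 13 sums of marker genes, the total counts, the mitochondrial share, the summed ribosomal protein genes and the first principal component of all genes, 7 passed at an adjusted p below 0.05. This family was added after the group comparisons had been seen. The 7 fell on 4 members, Avp, Grp, Vipr2 and Prokr2; Vip, Prok2, Nms, Six6 and Lhx1 had none.

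Avp followed the sum of the paraventricular and supraoptic markers. With the sum of Oxt, Sim1, Otp, Crh and Trh its r was 0.67 (permutation p = 0.00012, adjusted p = 0.00306; rho = 0.60; 0.62 without the 2 mice farthest from the median of the sum), and 0.67 with means removed per group and library set. The library sets were controls 1 to 5, controls 6 to 10, the labelled knockout, and the S662D libraries with and without the additional digit. The r of Avp with the sum was 0.85 in controls 1 to 5, 0.65 in controls 6 to 10 and 0.42 in S662D mice. Without the libraries rich in choroid plexus markers it was 0.55, with an adjusted p of 0.241. All 5 markers of this list were detected in all 35 libraries, and the sum ran from 158.7 to 251.6 CPM. Most of it was Oxt (median 125.4 CPM) and Trh (median 52.2 CPM), so the relations of Avp with the sum and with Oxt are not separate results. Oxytocin (Oxt), made by magnocellular neurons of the same nuclei and encoded 3565 bases from Avp on the opposite strand, was the gene most like Avp of 15472 with a mean of at least 1 CPM. Oxt and Avp had r = 0.68 (permutation p = 7e-05; rho = 0.59, permutation p = 0.00081; 0.59 without the 2 mice farthest from the median of Oxt), with r = 0.81 in fed controls, 0.65 in fasted controls and 0.40 in S662D mice. Of the single markers, Trh had r = 0.59 with Avp, Otp 0.34, Sim1 0.10 and Crh -0.07. Fed control 2 and fasted control 10 were low in both Avp (154.8 and 136 CPM) and Oxt (91.7 and 93.1 CPM), and fed control 1 was high in both (307.6 and 149.8 CPM). Fasted S662D replicate 1 went against this, with the highest Avp of all mice and an Oxt level under the mean of its group, 112.8 CPM.

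Vipr2 followed markers of the thalamus, which lies above the hypothalamus. With the sum of Prkcd, Tnnt1, Ramp3, Synpo2 and Plekhg1 its r was 0.65 (permutation p = 2e-05, adjusted p = 0.00102; rho = 0.67; 0.58 without the 2 farthest mice). It was 0.57 in controls 1 to 5, 0.70 in controls 6 to 10, 0.70 in S662D mice and 0.65 with means removed per group and library set. It passed in 40 of 40 alternatives, with r from 0.61 to 0.75. Each of the 5 markers had a positive r with Vipr2, from 0.32 (Ramp3) to 0.64 (Prkcd), and the sum ran from 649 to 1044 CPM. The sum was higher in fasted S662D mice (median 919 CPM) than in fasted controls (756 CPM), groups whose Vipr2 means were 12.4 and 13.1 CPM. The genes most like Vipr2 were Gulp1 (r = 0.73), Car4 (r = 0.70) and Dok1 (r = 0.66).

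Grp followed the ribosomal protein genes, with r = 0.73 for their sum (permutation p = 1e-05, the smallest the test can give; adjusted p = 0.00102; rho = 0.66; 0.66 without the 2 farthest mice). The relation was 0.82 in controls 6 to 10 and 0.79 in S662D mice but 0.23 in controls 1 to 5, so it did not hold in every set. It passed in 40 of 40 alternatives, among them the removal of means per group and library set (r = 0.71). The 3 genes most like Grp were all ribosomal protein genes or their near relatives: Rpl36 (r = 0.76), Rpl36al (r = 0.75) and Rpl30 (r = 0.75). Ribosomal protein genes have many near-identical copies, and the counting kept reads that map to several places. With the first principal component, which held 9.64% of the variance and had r = 0.82 with the ribosomal sum, Grp had r = 0.58 (adjusted p = 0.0112), and -0.19 in controls 1 to 5. That relation did not pass with means removed per group and library set (r = 0.55, adjusted p = 0.308), in control mice only (0.47, adjusted p = 0.343), without the libraries rich in choroid plexus markers (0.65, adjusted p = 0.0841) or without fed control 9 (0.50, adjusted p = 0.0853).

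Prokr2 moved against oligodendrocyte markers, which the optic chiasm and tracts below the hypothalamus carry. With the sum of a list that holds Mbp, Mog, Mag and Mobp its r was -0.65 (permutation p = 2e-05, adjusted p = 0.00102; rho = -0.67; -0.55 without the 2 farthest mice), with the ribosomal sum -0.63 (adjusted p = 0.00214) and with the first principal component -0.67 (adjusted p = 0.00153). With means removed per group and library set these were -0.39 (adjusted p = 0.356), -0.38 (adjusted p = 0.569) and -0.31 (adjusted p = 0.572), so none of the 3 passed. That setting splits the controls by set and the S662D libraries by the additional digit. The parts of the 2 splits were not tested apart. Within controls 1 to 5, controls 6 to 10 and S662D mice, the r of Prokr2 with the oligodendrocyte sum was -0.35, -0.51 and -0.46. In the same order it was -0.78, -0.18 and -0.60 with the ribosomal sum, and -0.57, -0.37 and -0.56 with the first principal component. Over all 35 mice, Mbp and Mag had the strongest single values, both at r = -0.70, and Mobp the weakest, at -0.24. The oligodendrocyte sum ran from 7006 to 9473 CPM.

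Six6 had r = 0.50 with the ventromedial markers Nr5a1 and Fezf1 (permutation p = 0.00270), which just missed the threshold over the family (adjusted p = 0.0516; rho = 0.56, adjusted p = 0.0262). It was 0.38 in controls 1 to 5, 0.50 in controls 6 to 10 and 0.61 in S662D mice. The genes most like the remaining members, by the same r over 35 mice, were Fhod3 (0.65), Lyn (0.64) and Slc41a3 (0.63) for Six6, Trim47 (0.60), Alg5 (0.60) and Map2k5 (0.59) for Lhx1, and Gm21989 (0.60), Gldn (0.58) and 4933403O08Rik (0.57) for Vip. For Nms they were S1pr3 (0.59), Spag5 (0.58) and Bsx (0.58), the last a homeobox gene of the hypothalamus. For Prok2 they were Zfp759 (0.65), Zfp874b (0.58) and Polr2b (0.57), for Prokr2 Fastkd1 (0.77), AI504432 (0.76) and Zfp275 (0.76), and for Avp, after Oxt, Rpl9-ps4 (0.67) and Gm42901 (0.67). These are the highest of 15472 values for each member and carry no test, and a strong r was not rare for Prokr2: 11.9% of all genes had an absolute r of at least 0.5 with it, against 7.96% for Grp, 1.86% for Avp and under 1% for the other 6.

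**Figure D3:**
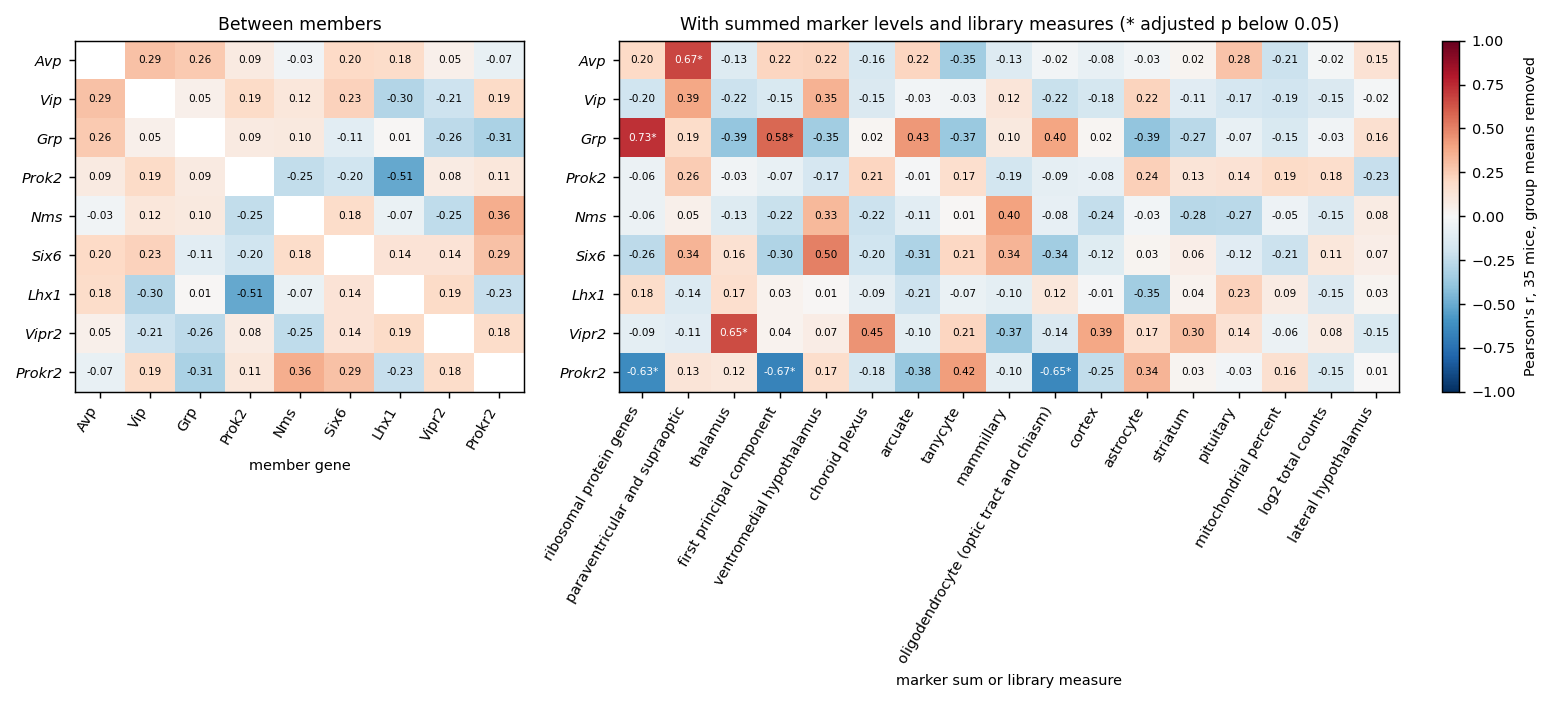
Pearson's r over 35 mice with group means removed, between the 9 genes (left) and of each gene with 13 marker sums and 4 library measures (right; an asterisk marks an adjusted p below 0.05). The left panel holds mostly weak values, the strongest at -0.51, and the right panel holds 7 marked values on Avp, Grp, Vipr2 and Prokr2.

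**Figure D4:**
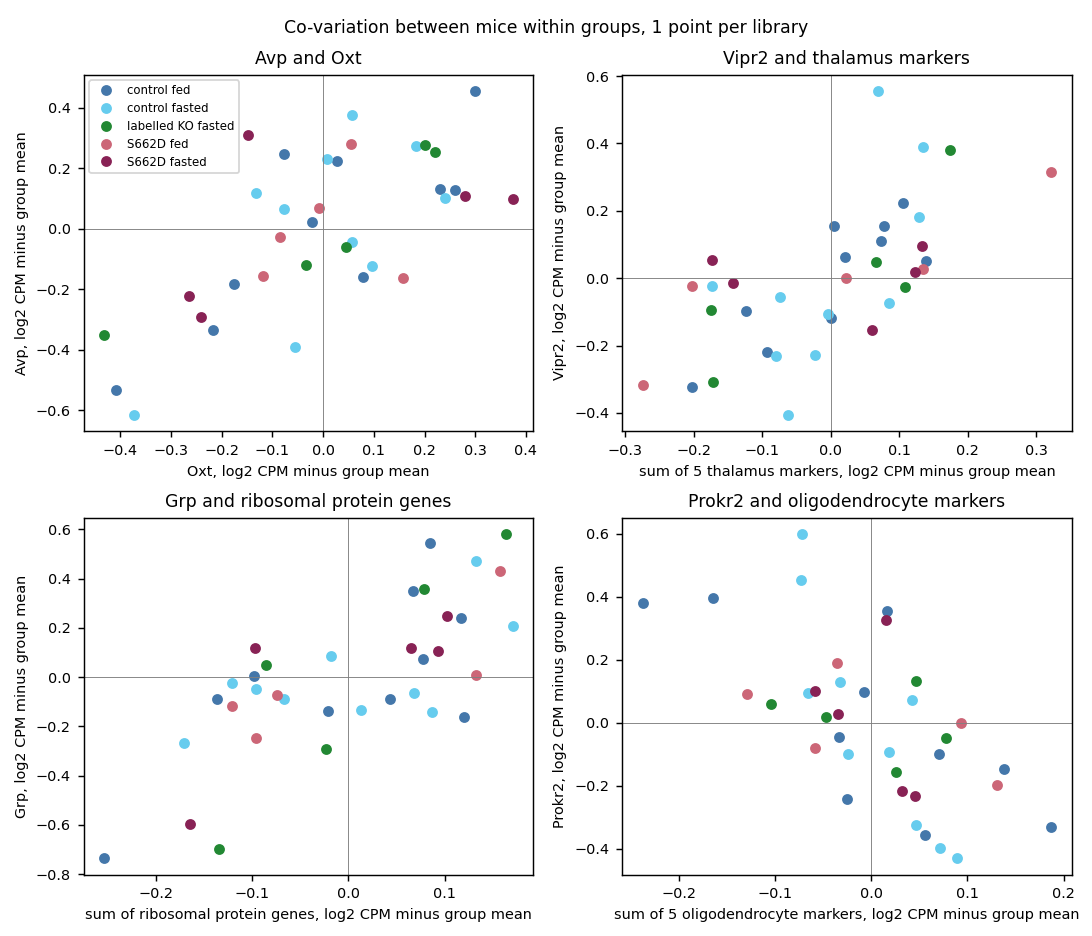
Log2 CPM minus the group mean of Avp against Oxt, Vipr2 against thalamus markers, Grp against ribosomal protein genes and Prokr2 against oligodendrocyte markers, 1 point per library, coloured by group. The first 3 rise together (r = 0.68, 0.65 and 0.73) and the last falls (r = -0.65).

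The 2 sets of control libraries gave opposite fasting responses for Prokr2, the receptor for Prok2. In controls 1 to 5, Prokr2 held 6.61, 6.10, 7.07, 6.22 and 7.32 CPM fed and 7.27, 8.50, 8.30, 10.7 and 11.8 CPM fasted. In controls 6 to 10 it held 8.39, 10.4, 7.60, 10.2 and 10.0 CPM fed and 8.16, 5.73, 6.17, 7.24 and 5.87 CPM fasted. Fasted libraries were thus mostly the higher ones in controls 1 to 5 and mostly the lower ones in controls 6 to 10, with a slight overlap of the ranges in both sets, and the means crossed almost exactly: 6.66 ± 0.527 to 9.30 ± 1.86 CPM in the first set and 9.32 ± 1.25 to 6.63 ± 1.04 CPM in the second (SD, n = 5 each). The pooled difference of -0.01 is the average of these. The labels do not say how the 2 sets were kept, sampled or processed, and whether handling or fed and fasted labels differed between them was not tested, which limits every pooled fasting value above. Agrp and Npy, feeding peptides of the arcuate nucleus that rise in fasted mice, and Pomc, the precursor of a satiety peptide, were looked at after these values were seen: Agrp and Npy were higher fasted in controls 1 to 5 (log2 fold changes of 0.89, adjusted p = 0.00424, and 0.50, adjusted p = 0.00158), and stood at 0.27 (adjusted p = 0.510) and 0.26 (adjusted p = 0.177) in controls 6 to 10. Pomc differed by -0.37 (adjusted p = 0.174) and 0.04 (adjusted p = 0.932).

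In a fit with a mean for each control set, the log2 fold change of Prokr2 with fasting was 0.48 (SE 0.12, adjusted p = 0.00991) in controls 1 to 5 and -0.49 (SE 0.12, adjusted p = 0.0178) in controls 6 to 10. There edgeR called 1 of 9 members (8.28% of all genes) and 2 of 9 (3.04% of all genes), the second being Six6, at -0.57 (SE 0.15, adjusted p = 0.0289) in controls 6 to 10 and -0.03 (SE 0.16) in controls 1 to 5. The difference between the 2 responses was -0.97 for Prokr2 (SE 0.17, interval -1.31 to -0.62, adjusted p = 0.00198), 1 of 9 members called where 10.6% of all genes were; for Six6 it was -0.54 (SE 0.22, adjusted p = 0.102). DESeq2 also called 1 of 9. Leaving out any 1 control library kept the Prokr2 call. Without the libraries rich in choroid plexus markers the difference was -0.84 with an adjusted p of 0.0777. In that fit 1 of all 18192 genes tested was called, against 1918 in the main fit. Over 25 alternatives the adjusted p of the Prokr2 difference began at 6.76e-05. This difference was added after the values by set had been seen.

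The myelin genes Mbp, Mog and Mag moved the other way in the same libraries, and Mobp did not. Mbp, the main protein of compact myelin, went from 4344 ± 255 CPM fed to 3703 ± 233 CPM fasted in controls 1 to 5 and from 3800 ± 377 to 4217 ± 131 CPM in controls 6 to 10 (SD, n = 5 each). The difference between the responses was 0.38 for Mbp (SE 0.08, adjusted p = 0.00517), 0.49 for Mog (SE 0.11, adjusted p = 0.00552) and 0.51 for Mag (SE 0.09, adjusted p = 0.00198), all called, and 0.10 for Mobp (adjusted p = 0.418), which was not. By edgeR, Mobp was higher fasted in controls 1 to 5 (0.11, adjusted p = 0.211) and in controls 6 to 10 (0.21, adjusted p = 0.0213). Mbp, Mog and Mag were called lower fasted in controls 1 to 5. Their rises in controls 6 to 10 were not called (adjusted p = 0.147, 0.0850 and 0.148). Without the libraries rich in choroid plexus markers, which left 2 fasted mice among controls 6 to 10 and 4 mice in each of the other 3 control subgroups, Mbp (0.40, adjusted p = 0.0889), Mog (0.48, adjusted p = 0.105) and Mag (0.52, adjusted p = 0.0564) were no longer called. In that fit 1 of all 18192 genes was called. The part of the shift of Mbp, Mog and Mag in the Prokr2 difference was not tested. Averaged over feeding, the 2 control sets did not differ past the threshold for any member: edgeR called 0 of 9 and 0% of all genes, 1 of 9, Vipr2, had an unadjusted p below 0.05 (8.74% of all genes) at 0.25 (SE 0.09, adjusted p = 0.335), and DESeq2 called 0 of 9.

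**Figure D5:**
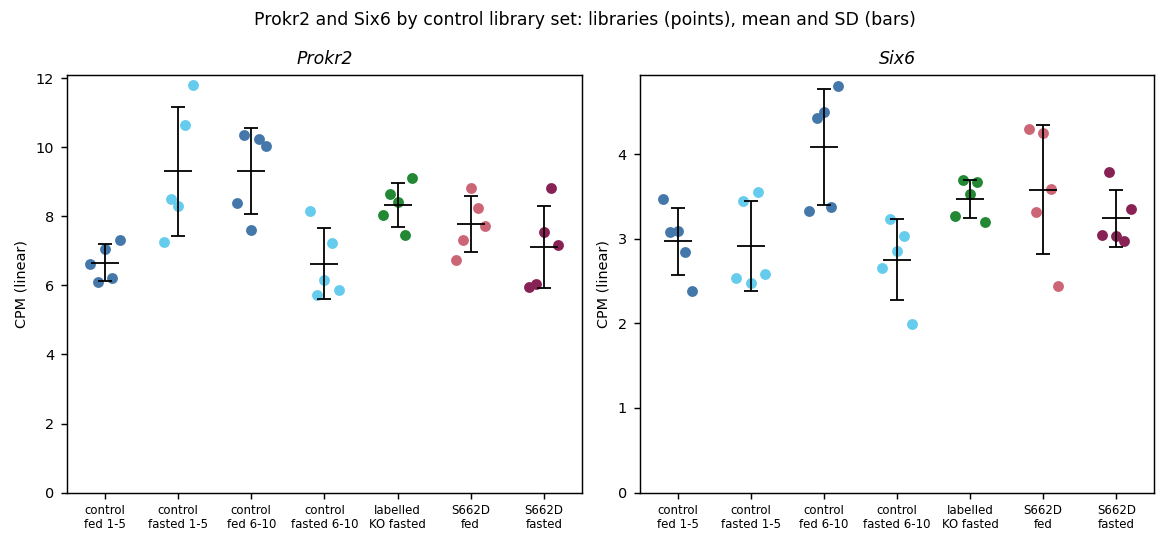
CPM (linear axis) of Prokr2 and Six6 in each library, with control libraries split by set (1 to 5 and 6 to 10), and bars for the mean and SD of each 5 libraries. Prokr2 is higher fasted (9.30 CPM) than fed (6.66 CPM) in controls 1 to 5 and lower fasted (6.63 CPM) than fed (9.32 CPM) in controls 6 to 10.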

How the data were processed

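Per the file headers, the authors' deposited values are raw counts per gene name from featureCounts 2.0.1 (GENCODE M12, mm10), keeping reads that map to several places and using no strand; per the submitters' processing notes, reads were aligned with STAR 2.7.10b. edgeR 4.0.16 (R 4.3.3) fitted all 35 libraries with a mean per group (TMM, filterByExpr with a minimum count of 10, robust quasi-likelihood test, Benjamini-Hochberg over 18063 genes); DESeq2 1.42.0 was an alternative. Correlations used log2 CPM (prior count 2), with group means removed and 100000 two-sided permutations of mice within groups. The code was tested on simulated data. Library depth was 17959586 to 37027342 counts, and counting error was taken as Poisson.

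The 9 genes, gene lists and tests were chosen with earlier results of these data known. Named genes are the 9, Per2, the 3 most correlated genes for each, called genes of the 2 lists, and markers whose values stand beside a result; 1 oligodendrocyte marker that enters the sum is not reported here. Each library was taken as 1 mouse, which the labels do not state; p-values measure the spread between libraries. Of 120 within-group pairs of libraries, 0 were identical. Same replicate numbers were not treated as pairs.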

Additional observations from a re-analysis of the deposited data

Results flagged for a closer look

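The fasting response of Prokr2 differed between the control sets by -0.97 on the log2 scale (controls 6 to 10 minus controls 1 to 5; edgeR, SE 0.17, adjusted p = 0.00198), by a test of the difference itself. Prokr2 was higher fasted in controls 1 to 5 and lower fasted in controls 6 to 10. The same test called 10.6% of all genes. Without the libraries rich in choroid plexus markers Prokr2 was not called (-0.84, adjusted p = 0.0777), and 1 of all 18192 genes was, against 1918 in the main fit.

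Of 45 combinations of a member and a group, 2 held a library far from the rest of its group, by its gap to the next value relative to the range; chance alone marks about 5% of groups. Grp was 2.01 CPM in fasted S662D replicate 3, where the next lowest value of that group was 3.33 CPM. Without it the log2 fold change of Grp with S662D in fasted mice was -0.24 (adjusted p = 0.507) in place of -0.36, and that with fasting in S662D mice was 0.38 (adjusted p = 0.355) in place of 0.27. Lhx1 was 10.1 CPM in fasted control 8, where the next highest was 9.07 CPM; without it the log2 fold change of Lhx1 with fasting in controls was -0.14 (adjusted p = 0.290) in place of -0.11.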

How the results depend on the processing

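Over the 7 comparisons of the study, 1665 of 1680 values of members under alternatives kept their side of the threshold, 14 were newly called and 1 was called with the opposite sign; 154 uncalled values, control sets included, changed sign. With controls 1 to 5 alone, the members called were 1 for fasting (Prokr2, 0.48, adjusted p = 0.0123, opposite in sign to the pooled value), 1 for the difference of the fasting responses (Prokr2, -0.61, adjusted p = 0.0431), 1 for S662D fed (Grp, -0.67) and 1 for S662D fasted (Prokr2, -0.39). With controls 6 to 10 alone, 2 were called for fasting (Prokr2, -0.49, and Six6, -0.57). For S662D fed, 1 member (Grp) was called with only the S662D libraries that carry the digit, with only the groups compared and by DESeq2, and 0 to 1 when leaving out each library (1 without control fed 7 or 9 or S662D fed 5). Members called for the 2 control sets' fasting responses fell to 0 without libraries rich in choroid plexus markers, where 1 of all 18192 genes was called. Relations with marker sums passing numbered 3 with means removed per group and library set, against 7.

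For no 2 groups was the correlation of every pair of libraries with the same replicate number over 0.1. It was in 1 of 10 pairs for fed and fasted controls and 4 of 5 for fed and fasted S662D. For S662D and controls it was in 3 of 5 fed and 2 of 5 fasted, and for the labelled knockout with either group in 0 of 5. Such a rule cannot show that no libraries with the same number were paired. With a replicate block the members called were 1 for S662D fed (Grp, -0.65) and 2 for S662D fasted (Avp, 0.36, and Prokr2, -0.39) and 0 elsewhere. Control libraries whose number no S662D library carries add nothing to the S662D differences from controls in that fit. Against fits of the same groups without the block, all genes called went from 1016 to 2347 for S662D fed and from 291 to 1321 for S662D fasted. For the labelled knockout against S662D they went from 476 to 227. With controls 1 to 5 alone and no block, they numbered 1741 for S662D fed and 1680 for S662D fasted, with Prokr2 at -0.39 fasted. With controls 6 to 10 alone, also without the block, they numbered 33 fed and 48 fasted. The rises for S662D fed and fasted thus cannot be assigned to the block, because the controls that count changed with it.

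Counts of all genes depended on the libraries and on the model or method: 304 to 1315 for fasting in controls (701), 7 to 683 in S662D (476), 0 to 486 for the difference (0), 16 to 3106 (847) and 20 to 3148 (1007) for S662D fed and fasted, 1 to 99 (5) and 26 to 2986 (1325) for the labelled knockout against control and S662D, 0 to 78 for the control sets (0) and 1 to 2363 for their responses (1918). The low of 20 came with the digit held as a factor and the high of 2363 from DESeq2, both with all 35 libraries. Depth limits Prok2 and Nms.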
